A study of Rattus norvegicus with 9 samples.

Results

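The renin-angiotensin system genes described here are 10 genes of the angiotensin precursor, its processing enzymes and its receptors, chosen by name from the 28343 gene symbols of the count table. They are Agt, Ace, Agtr1a, Atp6ap2, Lnpep, Thop1, Nln, Prcp, Rnpep and Agtrap. All 10 symbols were in the table, 7 had a count in all 9 libraries, and the same 7 had enough counts to be tested between groups. The RNA came from CD11b-positive cells that were sorted by flow cytometry from papain-digested whole retinas of Dark Agouti rats, a gate that also takes other myeloid cells. The 4 diabetic libraries came from rats given streptozotocin, which destroys pancreatic beta cells, at 55 mg/kg when 8 to 10 weeks old, and retinas were taken 4 weeks later. The 5 control libraries came from rats of the same strain and age that received citrate buffer and the same 12 hours of fasting. Diabetic rats also received 2 units of insulin whenever blood glucose passed 30 mmol/l, so streptozotocin, high glucose and insulin cannot be told apart between the groups. The labels give no sex and do not say whether a library held cells of more than 1 rat.

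In the circulating renin-angiotensin system, angiotensinogen is cut to angiotensin I and angiotensin-converting enzyme cuts that to angiotensin II, which raises blood pressure through the type 1 receptor. Other peptidases turn these peptides into shorter ones, some of which act on other receptors and oppose angiotensin II. The retina has long been described as holding a local form of the system, with angiotensinogen in glia and the type 1 receptor on vessels and neurons, and its blockade has been studied in diabetic retinopathy.

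The control libraries held 9156591 to 11332823 counts each and the diabetic libraries 6228756 to 9629829. The labelled cell type was checked on 12 microglia markers, all of which were tested, and which summed to 30090 to 34100 CPM (counts per 1000000 of a library's counts, scaled with TMM factors) in control and 28590 to 30890 CPM in diabetic libraries. Controls 1 and 3 were the 2 highest libraries in part of the vessel-wall genes. Controls 4 and 6 were the 2 highest in the sum of the genes of the response to cell isolation, though not in each of them. Results for the members that rest on these libraries are given with those values, as are some genes of the other lists.

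No member passed an adjusted p of 0.05 (quasi-likelihood test of edgeR, Benjamini-Hochberg over all genes), where 0.0681% of the 11748 tested genes did. At an unadjusted p below 0.05 there were 3 members of 7, Agt, Thop1 and Atp6ap2, and 18.9% of all tested genes. The DESeq2 Wald test called 2 members, Agt and Thop1, where it called 5.16% of genes, and limma-voom called 0 where it called 0.034%. For 2 of the 7 tested members, Agt and Thop1, the ranges of the groups did not overlap, as was so for 8.44% of all tested genes. Of the 7 tested members 3 had a log2 fold change (diabetic minus control) above 0. The median log2 fold change was -0.0052 over the tested members and 0.0018 over all tested genes, and the median size without sign was 0.18 against 0.22.

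**Figure D1:**
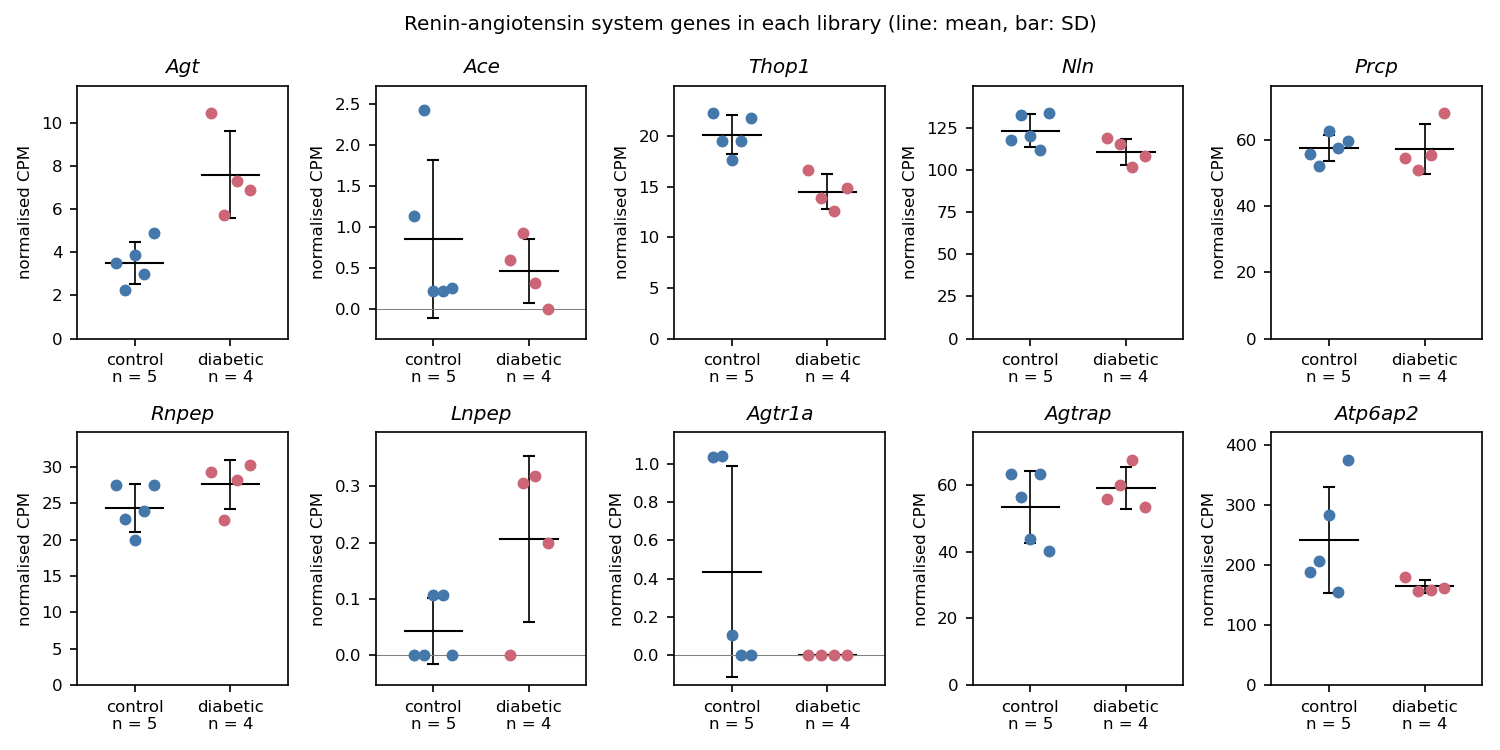
Normalised CPM of the 10 genes in each library (vertical axes differ and start at or just below 0), with 5 control points and 4 diabetic points a panel; the line is the group mean and the bar the SD. For Agt all diabetic points lie above the control points, for Thop1 all lie below, and Agtr1a has no diabetic point above 0.

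Agt encodes angiotensinogen, the only precursor of the angiotensin peptides. It had 37, 26, 36, 28 and 38 counts in controls 1, 3, 4, 5 and 6, and 106, 56, 46 and 69 counts in diabetic 1, 2, 4 and 5. Scaled to depth these were 3.49, 2.25, 3.87, 2.995 and 4.90 CPM in control and 10.5, 5.71, 7.32 and 6.90 CPM in diabetic libraries. Every diabetic library thus lay above every control library, with diabetic 1 highest and the nearest pair being diabetic 2 and control 6. The means were 3.50 ± 0.987 CPM (SD, n = 5) and 7.60 ± 2.03 CPM (SD, n = 4). The log2 fold change was 1.13 (SE 0.35, 95% interval 0.44 to 1.81), or 2.182-fold, with a quasi-likelihood adjusted p of 0.0933. It was past the threshold by the DESeq2 Wald test (adjusted p = 0.0101) and with the cell isolation list as covariate (adjusted p = 0.0297, where 13.6% of genes passed). In the authors' deposited table Agt stood at a log2 fold change of 1.26 (adjusted p = 0.00895), and was the 1 of 7 listed members past 0.05, where 2.1% of that table's genes were. The fit here without normalization factors also gave 1.26 (quasi-likelihood adjusted p = 0.0652). The median log2 fold change over all genes was 0.12 in that fit and in the authors' table, against 0.0018 with TMM factors.

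Agt is known as a gene of astrocytes and other glia, so the levels of markers of other retinal cells are given beside it. The Muller glia and astrocyte list (12 genes, 9 tested) summed to 2302 to 2506 CPM in control and 1945 to 2144 CPM in diabetic libraries. These ranges, scaled with TMM factors, did not overlap. The exact permutation test was not run on them but on the share of each library's counts, without TMM factors. On that share the list differed by -0.096 on the log2 scale (exact permutation p = 0.238, two-sided, and 0.529 adjusted over 9 lists). Glul, glutamine synthetase, and Slc1a3, a glutamate transporter, made up most of the sum. Their means were 1211 and 886 CPM in control and 1079 and 692.5 CPM in diabetic libraries. Without Glul the list (11 genes) summed to 1080 to 1260 CPM in control and 871 to 1036 CPM in diabetic libraries. Most of that remainder was Slc1a3, at 788 to 974 CPM in control and 600 to 806 CPM in diabetic libraries, so it says little about the other markers. Of the 9 tested genes 1, Glul, had group ranges that did not overlap, against 8.44% of all tested genes. None of the 12 markers was at 0 over all libraries. Diabetic 1, highest in Agt, was also highest in Gfap (6.12 CPM against 0.321 to 4.25 CPM in the other libraries) and Sox9 (6.42 against 2.07 to 4.77 CPM), and in 7 of the 12 markers in all. Slc1a3 was lowest of the 9 libraries there, at 600 CPM against 659 to 974 CPM, and Glul, at 1121 CPM, lay below the controls (1153 to 1308 CPM). Diabetic 1 was highest as well in the inner retinal neuron list, at 359 CPM against 73.5 to 234 CPM, and in the blood and border myeloid list, at 1409 CPM against 344 to 1036 CPM. It was highest in 9 of 11 neuron genes and 5 of 8 myeloid genes with counts. The other myeloid genes, S100a8, S100a9 and Plac8, were highest in diabetic 4, with S100a9 at 52.9 CPM there and 37.0 CPM in diabetic 1. The neuron list (12 genes, 10 tested, Pou4f1 at 0) summed to 73.5 to 177 CPM in control and 113 to 359 CPM in diabetic libraries. The myeloid list (9 genes, 8 tested) summed to 344 to 745 CPM in control and 632 to 1409 CPM in diabetic libraries. Ccr2, the monocyte chemokine receptor, was at 0 in all. The 8 tested genes all had a log2 fold change above 0, and none passed. An unadjusted quasi-likelihood p below 0.05 was found for 7, against 18.9% of all tested genes. For 4 the group ranges did not overlap, against 8.44% of all tested genes. The part of these lists in the difference of Agt was not tested, and in sorted bulk cells more cells of a type and more RNA per cell cannot be told apart. Without diabetic 1 the log2 fold change of Agt was 0.93 (quasi-likelihood adjusted p = 0.205).

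The gene span of Agt in the RefSeq annotation (assembly GRCr8) overlaps those of Cog2, a Golgi complex subunit, and Capn9, a calpain, and the strand setting of the counting is not given in the sources used here. Control libraries had 45.3 ± 5.34 CPM of Cog2 (SD, n = 5) and diabetic libraries 47.9 ± 7.27 CPM (SD, n = 4). Its log2 fold change was 0.077 (quasi-likelihood adjusted p = 0.768), with overlapping ranges. Capn9 had 18, 4, 5, 5 and 6 counts in the control libraries and 25, 9, 8 and 9 in the diabetic libraries, too few to test. It was highest in diabetic 1, like Agt, and second highest in control 1, which was not high in Agt. As for Agt, the diabetic mean of Capn9 was the higher one, with overlapping ranges. It was 1.39 ± 0.739 CPM (SD, n = 4), against a control mean of 0.778 ± 0.536 CPM (SD, n = 5). Whether reads from Cog2 or Capn9 entered the counts of Agt was not tested. No other member's RefSeq span overlaps a gene of the count table.

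The genes whose profile over the 9 libraries was closest to that of Agt were Metrnl, Emp3 and Rara, with root mean square differences of centred log2 CPM of 0.211, 0.221 and 0.232. Metrnl, a secreted meteorin-like protein, had a mean of 7.94 ± 1.26 CPM over 5 control (SD, n = 5) and 16.3 ± 3.75 CPM over 4 diabetic libraries (SD, n = 4), Emp3 at 6.20 and 13.2 CPM, and Rara, a retinoic acid receptor, at 3.11 and 6.75 CPM. None of these 3 passed (quasi-likelihood adjusted p = 0.0620, 0.0755 and 0.132).

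**Figure D2:**
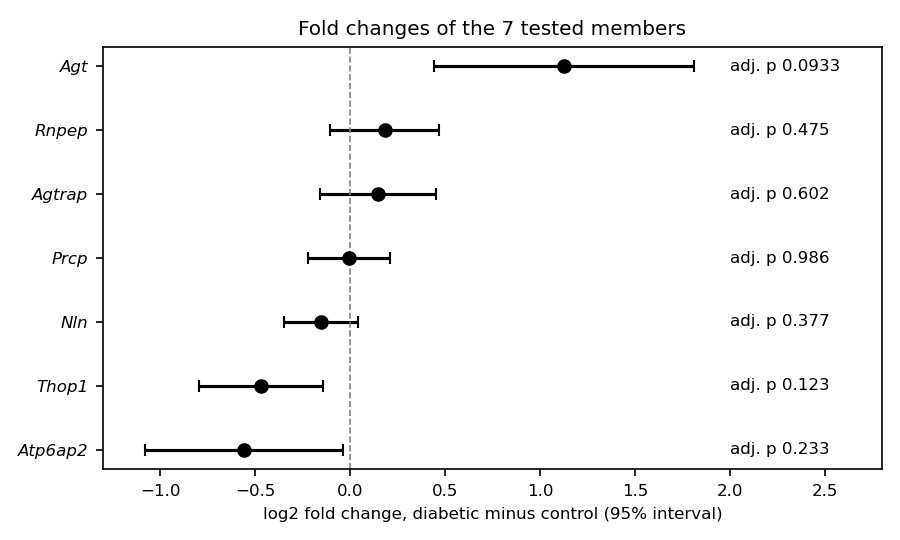
Log2 fold change (diabetic minus control) of the 7 members with enough counts to test; points are estimates and bars 95% intervals, with the quasi-likelihood adjusted p at the right. The intervals of Agt, Thop1 and Atp6ap2 leave out 0 and those of the other members include it, and all 7 adjusted p-values are above 0.05.

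Ace encodes angiotensin-converting enzyme, a peptidase of endothelial surfaces, and was barely detected. It had 12, 28, 2, 2 and 2 counts in controls 1, 3, 4, 5 and 6 and 6, 9, 2 and 0 counts in diabetic 1, 2, 4 and 5. Controls 1 and 3 thus held 40 of its 63 counts, and the other 7 libraries had 9 or fewer. It was not among the tested genes. In a fit without the filter on low counts its log2 fold change was -0.90 (quasi-likelihood adjusted p = 0.600).

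Agtr1a encodes the type 1a angiotensin receptor. Its counts were 11, 12, 1, 0 and 0 in controls 1, 3, 4, 5 and 6, and 0 in all diabetic libraries. The receptor was therefore listed in 3 libraries, and 2 of them held 23 of its 24 counts. The 24 counts are 0.479 CPM of the pooled control libraries, and 0 of 34470805 diabetic counts allows up to 0.087 CPM, a level at least 5.51-fold lower (floor of 3 counts over the group, counting error only). Controls 4, 5 and 6 together were at 0.0352 CPM, below that floor, so the bound rests on controls 1 and 3. Without the filter on low counts the receptor had an unadjusted p of 0.0148 and a quasi-likelihood adjusted p of 0.228.

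Bdkrb2, the type 2 receptor of bradykinin, a peptide that Ace inactivates, had 6 and 14 counts in controls 1 and 3 and 0 in the other 7 libraries. Controls 1 and 3 were the 2 highest libraries by CPM for 8 of 10 mural cell and 4 of 10 endothelial genes. Des, the muscle intermediate filament desmin, had 21 and 15 counts in controls 1 and 3 and 0 elsewhere. Pdgfrb, the pericyte receptor for platelet-derived growth factor, had 189 and 135 counts there, 19, 6 and 0 in controls 4, 5 and 6 and 2 to 28 in the diabetic libraries. The mural cell list without its most abundant gene, Cspg4 (9 genes), summed to 70.0 and 37.7 CPM in controls 1 and 3, 3.96 to 11.0 CPM in the other controls and 3.98 to 8.88 CPM in the diabetic libraries. With Cspg4, whose means were 102 ± 13.5 CPM (SD, n = 5) and 86.9 ± 17.6 CPM (SD, n = 4), the list of 10 genes ran from 97.0 to 176 CPM and from 79.8 to 118 CPM, with no gene at 0 over all libraries. The endothelial list (10 genes, none at 0 over all libraries) summed to 398 to 565 CPM in control and 346 to 492 CPM in diabetic libraries. Without its most abundant gene, Tie1, the list (9 genes) summed to 277.9 and 172.2 CPM in controls 1 and 3. That sum was 121.7 to 128.2 CPM in the other controls and 109.5 to 155.4 CPM in the diabetic libraries. Cldn5, the endothelial tight junction protein claudin 5, had 609 and 317 counts in controls 1 and 3, 1 to 18 in the other controls and 3 to 93 in the diabetic libraries. Other genes of the 2 lists did not have this order. Tagln, the smooth muscle protein transgelin, was highest in control 6, with 45 counts against 41 and 38 in controls 1 and 3. Kdr, a receptor of vascular endothelial growth factor, and Egfl7, a secreted endothelial protein, were highest in diabetic 1, with 487 and 182 counts. Tie1, an endothelial receptor kinase, was highest in diabetic 5, with 3440 counts. The part of vessel cells in the counts of Agtr1a, Ace and Bdkrb2 was not tested. Bdkrb2 and the vessel genes were picked for this description after their values were seen.

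**Figure D3:**
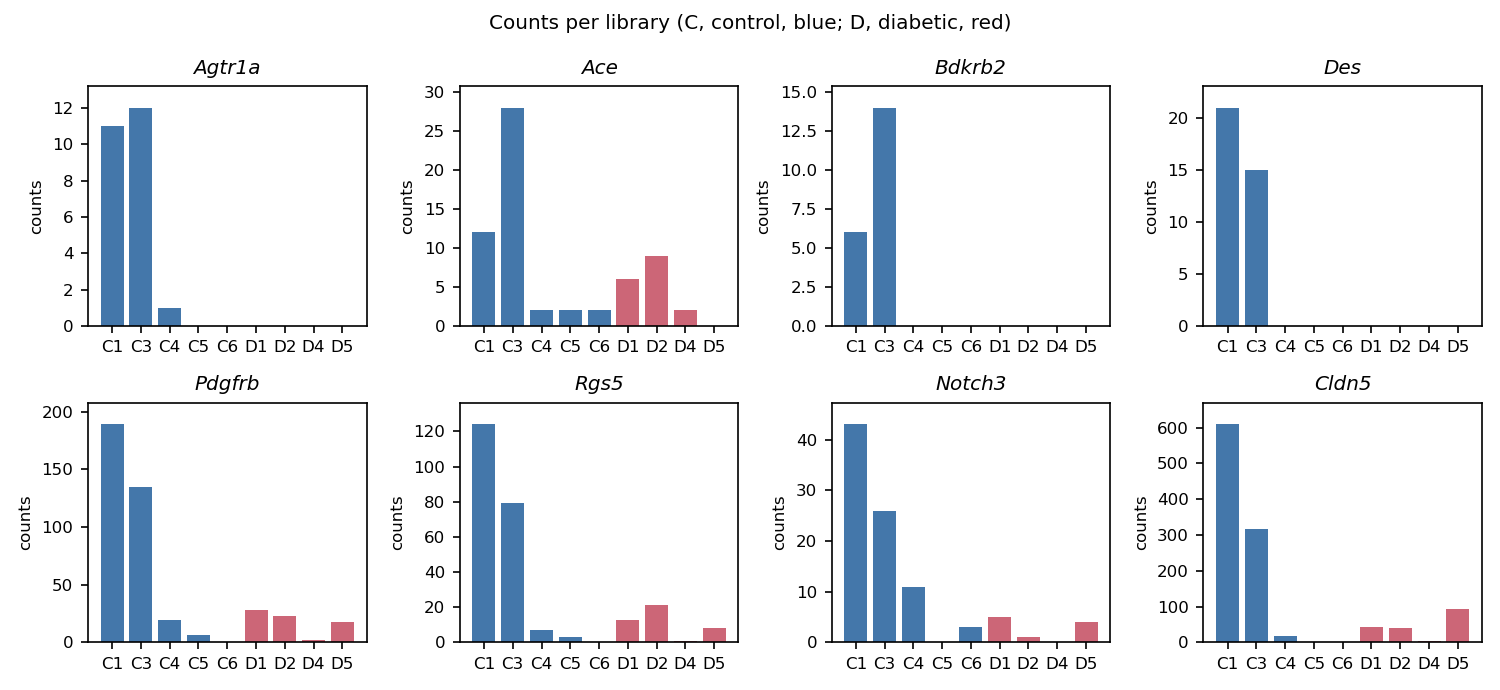
Counts of Agtr1a, Ace and Bdkrb2 and of the vessel genes Des, Pdgfrb, Rgs5, Notch3 and Cldn5 in each of the 9 libraries (C, control; D, diabetic; vertical axes start at 0 and differ between panels). Bars are single libraries; controls 1 and 3 are the tallest pair in every panel, with 11 and 12 counts for Agtr1a, and the vessel genes drawn were picked for that order.

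Thop1 encodes thimet oligopeptidase, a soluble metallopeptidase that can turn angiotensin I into a heptapeptide and also cleaves bradykinin and many other small peptides. It had 22.3, 19.5, 17.6, 19.5 and 21.8 CPM in controls 1, 3, 4, 5 and 6 and 16.7, 13.9, 12.6 and 14.9 CPM in diabetic 1, 2, 4 and 5. All diabetic libraries lay below all controls, and the nearest pair, control 4 and diabetic 1, were 17.62 and 16.68 CPM. The means were 20.1 ± 1.90 CPM (SD, n = 5) and 14.5 ± 1.73 CPM (SD, n = 4), on 79 to 236 counts a library. The log2 fold change was -0.47 (SE 0.17, 95% interval -0.80 to -0.14), with a quasi-likelihood adjusted p of 0.123. By the DESeq2 Wald test the adjusted p was 0.0468. The values of the groups overlapped with upper-quartile factors and without normalization factors. The authors' deposited table listed Thop1 at a log2 fold change of -0.35 (adjusted p = 0.422), the value that the fit here gave without normalization factors.

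The closest profiles to Thop1 over the 9 libraries were those of Kcng2, Cpsf3 and Ptpn9, with root mean square differences of 0.0995, 0.102 and 0.108 on centred log2 CPM. Kcng2, a potassium channel subunit, was at 50.6 and 38.9 CPM in control and diabetic libraries, Cpsf3, the endonuclease of messenger RNA 3′ processing, at 118 and 90.1 CPM, and Ptpn9, a tyrosine phosphatase, at 70.7 and 54.1 CPM. None of the 3 passed (quasi-likelihood adjusted p = 0.123, 0.0895 and 0.109).

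Nln encodes neurolysin, the closest relative of thimet oligopeptidase, which cuts neurotensin and shares several of its peptide substrates. It had 118, 133, 120, 112 and 134 CPM in the control libraries and 119, 115, 101 and 108 CPM in the diabetic libraries, in order of their numbers. Diabetic 4 and 5 lay below all controls, while diabetic 1 and 2 lay among them. The means were 123 ± 9.72 CPM (SD, n = 5) and 111 ± 7.69 CPM (SD, n = 4). Its log2 fold change was -0.15 (95% interval -0.35 to 0.044, quasi-likelihood adjusted p = 0.377), and it had 637 to 1530 counts a library. The difference between the fold changes of Thop1 and Nln was not tested.

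Prcp encodes prolylcarboxypeptidase, a lysosomal serine peptidase that removes the last residue of angiotensin II. Its reference transcript lies on Rnor6 chromosome 1, 157701089 to 157750169, plus strand, in 9 exons. It had 55.6, 52.1, 62.5, 57.3 and 59.4 CPM in control and 54.5, 50.9, 55.3 and 68.0 CPM in diabetic libraries. Diabetic 5 was the highest library of all and diabetic 2 the lowest, so the diabetic range enclosed the control range. The log2 fold change was -0.0052 (95% interval -0.22 to 0.21, quasi-likelihood adjusted p = 0.986). Its sign turned with upper-quartile factors (0.071) and without factors (0.11).

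Rnpep encodes aminopeptidase B, which trims basic residues from the start of peptides (Rnor6 chromosome 13, 52092859 to 52111363, minus strand). It had 27.6, 22.8, 19.9, 24.0 and 27.5 CPM in control and 29.2, 22.7, 28.2 and 30.3 CPM in diabetic libraries. Diabetic 1, 4 and 5 lay above all controls and diabetic 2 lay among the lower ones. The log2 fold change was 0.18 (95% interval -0.10 to 0.47, quasi-likelihood adjusted p = 0.475). Lnpep encodes the insulin-regulated aminopeptidase, also known as the binding site of angiotensin IV and as a protein of glucose transporter vesicles. It had 0, 0, 1, 1 and 0 counts in control and 0, 3, 2 and 2 counts in diabetic libraries. With 9 counts in all it was close to absent from the table, and no fold is given. Without the filter on low counts its quasi-likelihood adjusted p was 0.440.

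Agtrap encodes a membrane protein that binds the tail of the type 1 receptor and promotes its internalisation (Rnor6 chromosome 5, 164886813 to 164898420, minus strand). It had 63.3, 56.5, 43.7, 63.2 and 40.3 CPM in controls 1, 3, 4, 5 and 6 and 55.9, 60.0, 67.7 and 53.3 CPM in the diabetic libraries. Controls 4 and 6 were the lowest of the 9, and the other 3 controls lay within the diabetic range. The log2 fold change was 0.15 (95% interval -0.16 to 0.45, quasi-likelihood adjusted p = 0.602). RNA of this receptor-binding protein was thus listed at 313 to 671 counts a library, while Agtr1a had no count in 6 of the 9.

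Atp6ap2 encodes the (pro)renin receptor, which is also an accessory subunit of the vacuolar proton pump that acidifies lysosomes (Rnor6 chromosome X, 11136939 to 11164915, minus strand). It had 189, 206, 283, 156 and 376 CPM in controls 1, 3, 4, 5 and 6 and 180, 157, 159 and 161 CPM in the diabetic libraries. Controls 4 and 6 were far above the rest, and control 5 was below every diabetic library. The SD was 36.4% of the mean in control and 6.3% in diabetic libraries. The means were 242 ± 88.1 CPM (SD, n = 5) and 164 ± 10.3 CPM (SD, n = 4). The log2 fold change was -0.56 (SE 0.27, 95% interval -1.08 to -0.039) with an unadjusted p of 0.0352 and a quasi-likelihood adjusted p of 0.233. Without control 6 it was -0.34 (quasi-likelihood adjusted p = 0.313).

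Controls 4 and 6, highest in Atp6ap2 and lowest in Agtrap, also had the largest share of counts on the cell isolation list, 17 immediate-early and stress genes. The share was 2.15% and 2.62% in these, 0.420% to 0.954% in the other controls and 1.25% to 1.98% in the diabetic libraries. None of those genes was at 0 over all libraries, and they summed to 4129 to 31220 CPM in control and 12420 to 19080 CPM in diabetic libraries. Single genes of the list did not all have this order. Fos, Jun, Jund and Klf2 were highest in diabetic 5, with Fos at 1207 CPM there against 795 and 1102 CPM in controls 4 and 6. With the share on this list as a covariate the log2 fold change of Atp6ap2 was -0.71 (quasi-likelihood adjusted p = 0.0133). That of Agtrap was 0.30 (quasi-likelihood adjusted p = 0.115) and that of Thop1 -0.48 (adjusted p = 0.0518). In that fit 13.6% of genes passed.

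**Figure D4:**
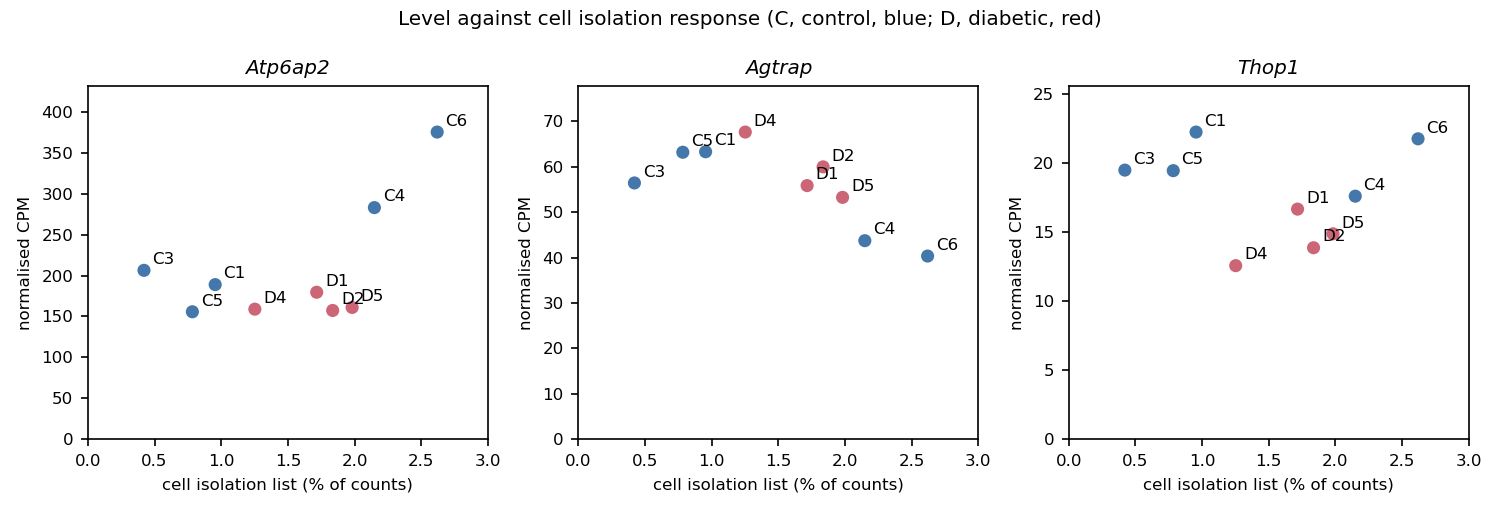
Normalised CPM of Atp6ap2, Agtrap and Thop1 (vertical axes, from 0) against the share of counts on the cell isolation list (horizontal axis, percent); each point is 1 library (C, control; D, diabetic). Controls 4 and 6, at 2.15% and 2.62%, are highest in Atp6ap2 and lowest in Agtrap, while for Thop1 they lie with the other controls.

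Levels of different genes were compared per length where the deposited assemblies gave a reference transcript, which was so for 4 members. Atp6ap2 was at 111 ± 40.4 CPM per kilobase (SD, n = 5) in control and 75.3 ± 4.74 (SD, n = 4) in diabetic libraries, above the others in every library (lowest value 71.4). Prcp came next at 24.3 ± 1.66 and 24.2 ± 3.16 CPM per kilobase, with no library below 21.6. Agtrap was at 15.4 ± 3.13 and 17.1 ± 1.82, and Rnpep at 10.4 ± 1.40 and 11.8 ± 1.46 CPM per kilobase. The ranges of these last 2 over all libraries, 11.7 to 19.6 and 8.52 to 12.99, overlapped.

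Of 20 other genes of angiotensin and bradykinin formation, breakdown and reception, 18 were in the table and 4 had enough counts to test. Agtr1b and Agtr2, receptors for angiotensin II, were at 0 in all 9 libraries. So were Mas1 and Mrgprd, receptors for shorter angiotensin peptides, Cma1 and Ctsg, peptidases that can form angiotensin II without converting enzyme, and Bdkrb1. The limit that 0 counts allows is 0.0599 CPM in the control group and 0.087 CPM in the diabetic group. Enpep, the aminopeptidase that makes angiotensin III, had 3 to 23 counts in control and 4 to 16 in diabetic libraries, and Anpep, which shortens it further, had 2 to 45 and 2 to 9. Mme, neprilysin, had 4 counts, all in diabetic 2. None of the 4 tested genes passed, and all had a log2 fold change below 0. Ctsd, the lysosomal aspartic peptidase cathepsin D, was at 2650 ± 117 CPM (SD, n = 5) and 2262 ± 117 CPM (SD, n = 4), with values that did not overlap (log2 fold change -0.23, quasi-likelihood adjusted p = 0.135). Prep, prolyl endopeptidase, was at 68.4 and 59.3 CPM (quasi-likelihood adjusted p = 0.315).

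Of 25 genes that carry or limit signals from angiotensin receptors, 24 were tested and none passed. At an unadjusted p below 0.05 there were 3 with a higher and 4 with a lower mean in diabetic libraries, which is 7 of 24, against 18.9% of all tested genes, and the median log2 fold change was -0.16. Arrb2, beta-arrestin 2, which uncouples and internalises receptors, averaged 50.01 ± 4.23 CPM (SD, n = 5) over the controls and 77.5 ± 12.1 CPM (SD, n = 4) over the diabetic libraries, without overlap (log2 fold change 0.63, SE 0.17, quasi-likelihood adjusted p = 0.0620). Cyba, the p22phox subunit of NADPH oxidase, was at 280 ± 28.8 and 375 ± 60.0 CPM, also without overlap (log2 fold change 0.42, quasi-likelihood adjusted p = 0.115). Rock2 and Rock1, kinases of the actin cytoskeleton, were at 178 and 135 CPM and at 151 and 114 CPM, with log2 fold changes of -0.40 each (quasi-likelihood adjusted p = 0.0992 and 0.125). Both were highest in controls 4 and 6. Rock1 was at 177 and 172 CPM there, 123 to 142 CPM in the other controls and 103 to 124 CPM in the diabetic libraries.

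Of 6 genes of the mineralocorticoid arm, through which angiotensin acts by way of aldosterone, 2 were tested. Sgk1, a kinase induced by the mineralocorticoid and glucocorticoid receptors, was at 1164 ± 476 CPM (SD, n = 5) and 687 ± 281 CPM (SD, n = 4), with a quasi-likelihood adjusted p of 0.317. Nr3c2, the mineralocorticoid receptor, was at 4.08 ± 0.960 and 3.61 ± 0.525 CPM (quasi-likelihood adjusted p = 0.723). Cyp11b2, aldosterone synthase, had 10 counts over all libraries.

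The vacuolar proton pump, to which Atp6ap2 belongs, had 17 other genes on its list. Of these 16 were tested, none passed, 12 had a log2 fold change below 0, and the median was -0.17. Atp6v0d2 was at 0 in all libraries. The smallest p-values belonged to Atp6v0a1 (59.0 and 47.1 CPM, log2 fold change -0.32) and Atp6v1b2 (216 and 176 CPM, -0.29) on the lower side, and to Tcirg1 (286 and 341 CPM, 0.25) and Atp6v0e1 (132 and 143 CPM, 0.12) on the higher side. Their quasi-likelihood adjusted p-values lay between 0.173 and 0.568. Atp6v1b2 was highest in controls 4 and 6, at 236 and 245 CPM, against 191 to 212 CPM in the other controls and 160 to 205 CPM in the diabetic libraries. Among 9 metallopeptidases related to the enzymes above, 8 were tested, none passed, and the median log2 fold change was -0.24. Lta4h, leukotriene A4 hydrolase, a relative of Rnpep, was at 238 ± 17.0 CPM (SD, n = 5) and 188 ± 15.4 CPM (SD, n = 4), and Erap1, a relative of Lnpep that trims peptides for antigen presentation, was at 148 ± 18.3 and 120 ± 3.82 CPM. For both, all diabetic libraries lay below all controls, with log2 fold changes of -0.34 and -0.30 and quasi-likelihood adjusted p-values of 0.105 and 0.157. The 2 on the higher side, Rnpepl1 (132 and 134 CPM) and Trhde (1.41 and 1.43 CPM), had log2 fold changes of 0.017 and 0.0047.

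**Figure D5:**
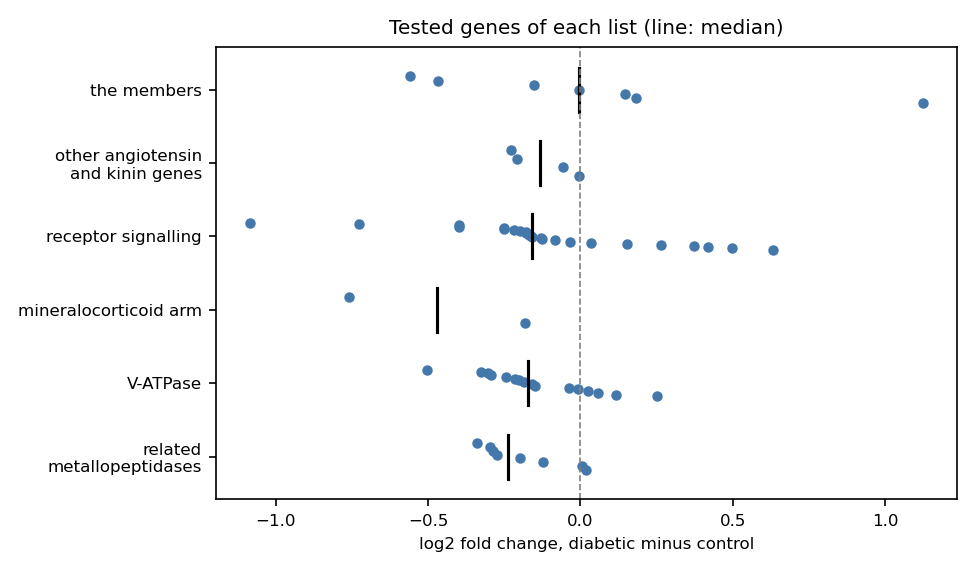
Log2 fold change (horizontal axis, diabetic minus control) of each tested gene of the members and of the 5 other pathway lists, with points spread vertically for sight only and the median as a line. The medians run from -0.47 in the mineralocorticoid arm (2 genes) to -0.0052 in the members, and Agt, at 1.13, is the highest point of all.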

How the data were processed

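Libraries were made with Nextera XT from RNA that had passed a SmartSeq preamplification, per the labels. The authors deposited raw counts per gene symbol, which are used here as reads because no molecular identifiers are named. A second table holds the authors' log2 fold changes with a p-value and adjusted p-value per gene, deposited without a stated model. The submitters' processing notes name TopHat2 2.0.14, StringTie 1.2.4, bcl2fastq 2.18.0.12 and edgeR and the build Rnor_6.0. Which program counted the reads, and with which strand option, is not given in the sources used here. From the deposited StringTie assemblies only positions and reference identifiers were read, and their score field and abundances were not used.

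Samples were grouped by title into 5 control and 4 diabetic libraries. Genes were kept by filterByExpr (minimum count 10, minimum total 15), which left 11748 of 17822 genes with any count. TMM factors set the scale, and edgeR 4.0.16 gave the test (quasi-likelihood F test, robust, no covariates) in R 4.3.3, with Benjamini-Hochberg adjustment over all tested genes and a threshold of 0.05. The SE was derived from the size of the log2 fold change and the normal quantile matching its p, and intervals are 95% normal intervals. Log2 CPM used a prior count of 2. Floors are 3 counts over a group. They cover counting error only. DESeq2 1.42.0 and limma 3.58.1 were alternatives. On simulated counts with 11748 genes, the diabetic against control fit recovered 58% of genes changed by 1 and 93.8% of those changed by 2 on the log2 scale. Of its 163 calls 7 were false. The simulated spread followed expression level alone, without gene-specific spread, and the simulated libraries differed in depth only. The recovered shares are therefore not the power for single genes, such as Agt, in these data. The lowest chi-square per degree of freedom between 2 libraries was 11.7, so none was counted as a repeat. P-values measure the spread between these libraries only. Replicate numbers 1, 4 and 5 occur in both groups but nothing in the labels pairs the animals.

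The members, gene lists and tests were chosen with earlier results of these data known. Named genes are all 10 members, up to 2 genes per direction with the smallest p in each other pathway list, genes at 0, and the 3 profiles closest to Agt and to Thop1. Exceptions are named as such. All 10 member symbols matched the RefSeq table (GRCr8), used for overlaps only. Klk1, Kng1, Cyp11b1 and Pecam1 were not analysed here, and some other list members are not reported here.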

Additional observations from a re-analysis of the deposited data

Results flagged for a closer look

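In diabetic 1, Atp6ap2 was at 180 CPM, apart from the other 3 diabetic libraries at 157 to 161 CPM. The gap is 0.834 of the group's range, just past Dixon's limit for 4 samples. It was the 1 flag among 19 groups of member values checked, and chance flags about 1 in 20 such groups.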

How the results depend on the processing

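The number of genes past the threshold moved from 8 to 31 with upper-quartile factors, 29 without factors, 42 without the filter on low counts, 4 by limma-voom, 598 by DESeq2 and 1594 with the cell isolation covariate. Of the 8 calls 62.5% were higher, against 87.1% with upper-quartile factors, 96.6% without factors (where the median over all genes rose to 0.12), 50% by limma-voom, 47% by DESeq2 and 36.6% with the covariate. Leaving out 1 library gave 0 to 75 genes: 75 without control 1, 1 without control 3 or control 5, 2 without diabetic 2, and 0 without control 4, diabetic 1 or diabetic 4 (1687, 1792 and 1528 at an unadjusted p below 0.05 in edgeR; no other tool was run without single libraries). The replicate block on numbers 1, 4 and 5 gave 0 genes and 0 members (1150 genes at an unadjusted p below 0.05), and the same 6 libraries without the block, added after the data were seen, also gave 0 (1249). Same-numbered libraries deviated with correlations of 0.326, -0.0698 and -0.22 over 500 variable genes, and only those numbered 1 correlated best with their own number. Members past the threshold numbered 2 with the covariate (Agt, Atp6ap2), 2 by DESeq2 (Agt, Thop1) and 0 under the other 15 alternatives, leaving out each library included (2 to 4 at an unadjusted p below 0.05). Over its 17 alternatives the adjusted p of Agt ran from 0.0101 to 0.365, and without single libraries from 0.0814 to 0.254. Members without overlap numbered 1 (Agt) with upper-quartile factors or without factors, and 2 to 3 when 1 library was left out. The share over all tested genes is not given for these settings. Leaving out a library makes a lack of overlap easier for any gene, so these counts say nothing about stability. The sign of Prcp turned under 9 alternatives: 0.071 with upper-quartile factors, 0.11 without factors, 0.013 with the block, 0.019 on its 6 libraries, 0.027 without control 4, 0.0075 without control 6, 0.017 without diabetic 1, 0.046 without diabetic 2 and 0.0098 without diabetic 4, with leave-one-out values from -0.10 to 0.046. The other 6 tested members kept their sign under all 17. For the marker lists the count of 0 past the threshold says nothing about stability, since the smallest exact permutation p (0.00794), adjusted over 9 lists, gives 0.0714 for a single list. Unadjusted, that p was 0.0238 for the myeloid, 0.0397 for the inner retinal neuron and 0.0476 for the pigment epithelium list. The pigment epithelium value rests on Best1, with 136728 counts over all libraries. Its other markers, Rpe65, Ttr, Rgr and Lrat, had 11, 14, 3 and 0 counts. The cause of the changes between alternatives was not tested. The comparison on TPM was not run, since 4 of the 10 members had a reference transcript, in 1 to 6 libraries each. Depth limits Ace, Agtr1a and Lnpep, with 63, 24 and 9 counts over all libraries.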

Other observations

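Gna13 and Jak2 of the receptor signalling list, and Sgk1 of the mineralocorticoid arm, were also highest in controls 4 and 6. They are given here after their values were seen. Gna13, a G protein alpha subunit, was at 487 and 611 CPM in controls 4 and 6, 129 to 211 CPM in the other controls and 109 to 214 CPM in the diabetic libraries (log2 fold change -1.08, quasi-likelihood adjusted p = 0.320). Jak2, a kinase that the type 1 receptor can activate, was at 198 and 209 CPM in those libraries, 101 to 141 CPM in the other controls and 78.5 to 104 CPM in the diabetic libraries (log2 fold change -0.73, quasi-likelihood adjusted p = 0.139). Sgk1 was at 1384 and 1846 CPM in controls 4 and 6, 689 to 1145 CPM in the other controls and 374 to 1038 CPM in the diabetic libraries. Part of the proton pump list, picked in the same way, had this order too, among them Atp6v0c, Atp6v1a and Atp6v1d. Atp6v0c was at 597 and 783 CPM in controls 4 and 6, 382 to 388 CPM in the other controls and 383 to 501 CPM in the diabetic libraries. Other pump genes did not, such as Atp6ap1, highest in control 1, and Tcirg1, highest in diabetic 2.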
